A study of Homo sapiens with 4 samples.

Results

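The genes described here were 8 transcription factors that set lung, liver and gut identity: NKX2-1, FOXA1, FOXA2, FOXA3, HNF4A, HNF4G, GATA6 and SOX2. Their probes were chosen by gene symbol in the platform annotation, which gave 11 of the 47322 probes on the array and covered 7 of the 8 genes. HNF4A had no probe under its symbol in the annotation used and was not analysed here. The cells were H358, an established human lung adenocarcinoma line. In the ADAR shRNA group (2 arrays) they had been transfected with a short hairpin RNA against ADAR, an RNA-editing enzyme that deaminates adenosine in double-stranded transcripts, and in the scrambled group (2 arrays) with a scrambled sequence. All 4 arrays were Illumina HT-12 BeadChips, where the reading of a probe is averaged over its beads. The letter B in the titles of the ADAR shRNA arrays, the hairpin sequences, and the time and selection after transfection were not explained in the sources used here, so the group stands for 1 named hairpin treatment of 1 cell line. The series design calls the replicates biological and does not say whether they were separate cultures. The p-values therefore measure the spread between 2 arrays per group, and that number limits their precision.

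NKX2-1 is the homeodomain factor that specifies lung and thyroid from the foregut, and it maintains surfactant genes in alveolar type II cells. The FOXA proteins are forkhead factors that can bind closed chromatin and open it for other regulators in liver, lung, pancreas and gut. HNF4A and HNF4G are nuclear receptors of liver and intestinal epithelium, GATA6 is a zinc finger factor of early endoderm, and SOX2 is an HMG-box factor of stem cells and of the proximal airway. In mouse lung tumours, loss of NKX2-1 is known to redirect FOXA1 and FOXA2 towards gastric genes.

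The raw signal is the mean brightness over its beads in arbitrary units, with the standard error between beads. A probe counted as above background, or detected, on an array where its detection p-value against the negative control probes was under 0.05. The log2 change is the normalized log2 mean of ADAR shRNA cells minus that of scrambled cells, and its standard error (SE) is the moderated one from limma. A probe was said to rise or fall at an adjusted p under 0.05 after Benjamini-Hochberg adjustment over all 21263 probes detected on at least 2 of the 4 arrays. Where a probe was not above background on either ADAR shRNA array, the fold is given as "at least". That bound sets the scrambled mean against the mean of the faintest detected signals of the ADAR shRNA arrays, or of the probe's own value there if higher. The bound holds on the background-corrected and normalized scale only. Raw readings still hold the background, and the ratio of their group means is given beside the bound and is often smaller than it.

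The state of the arrays touches every value. Detected probes numbered 18722 and 19294 on the ADAR shRNA arrays and 20901 and 20031 on the scrambled arrays, and raw signals had an upper quartile of 94.5 and 92.1 on the ADAR shRNA arrays against 143 and 115 on the scrambled arrays. Normalized values over 12197 genes correlated at 0.987 within the ADAR shRNA pair and 0.984 within the scrambled pair, and at 0.765 to 0.795 across groups. The brightest ADAR probe (ILMN_1776777) read 755 and 932 on the ADAR shRNA arrays, against 2703 and 2676 on the scrambled arrays, a log2 change of -1.03 (SE 0.22, limma adjusted p = 0.00561). Another ADAR probe detected on all 4 arrays (ILMN_2320964) read 356 and 439 on the ADAR shRNA arrays against 1038 and 582 on the scrambled arrays and was not called (log2 change -0.19, limma adjusted p = 0.557). Epithelial markers, which an adenocarcinoma line should carry, differed between the groups. EPCAM, an epithelial adhesion protein, read 60.7 and 51.3 on the ADAR shRNA arrays, not above background, against 8517 and 8016 on the scrambled arrays. CDH1, the epithelial cadherin, read 51.2 and 52.1, again not above background, on the ADAR shRNA arrays, against 4289 and 3839 on the scrambled arrays. Of 6 epithelial markers 5 fell, against 30.3% of all genes. The summed raw signal of the 6 was 2233 to 2505 on the ADAR shRNA arrays and 24506 to 25775 on the scrambled arrays. EPCAM and CDH1 entered the test through the scrambled arrays alone, which favoured a fall. The keratins KRT7 (log2 change -4.75), KRT8 (-1.86) and KRT19 (-1.66) fell, and KRT18 was not called (-0.44, limma adjusted p = 0.277). The haematopoietic markers CD14 and CD68 rose, while PTPRC and CD3E, of the same marker list, were not tested, because neither was detected on 2 arrays. The summed signal of CD14 and CD68 was 2010 to 2590 on the ADAR shRNA arrays and 953 to 1023 on the scrambled arrays. Of the fibroblast markers COL1A2, COL3A1 and DCN were not tested. The sum over the other 3 was 192 to 200 on the ADAR shRNA arrays and 307 to 361 on the scrambled arrays. These 3 moved both ways: PDGFRB rose (log2 change 1.18), while COL1A1 (-0.91) and LUM (-2.12) fell. Among the 3, 2 were undetected on both ADAR shRNA arrays and entered the test through the scrambled arrays alone. Of the endothelial markers only PECAM1 was tested, and it read 54.1 to 60.3 on the ADAR shRNA arrays and 74.9 to 77.3 on the scrambled arrays. Whether the ADAR shRNA arrays hold the same cells as the scrambled arrays was not tested. A difference in cell population and an effect of the hairpin cannot be told apart in any value given here.

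NKX2-1, FOXA2 and SOX2 were read clearly above background on both scrambled arrays and on neither ADAR shRNA array. HNF4G showed the same pattern close to the background level, FOXA1 was detected on all 4 arrays, and FOXA3 and GATA6 were detected on none. Of the 7 member probes that could be tested, 6 fell, from 4 genes, and 0 rose, also at an unadjusted p under 0.05 in limma. Among all 21263 probes tested, 50.6% passed the test, 26.3% by falling and 24.2% by rising. On each of the 7 tested member probes the scrambled readings lay above the ADAR shRNA readings without overlap. Groups did not overlap at 75.7% of all tested probes, with ADAR shRNA the lower group at 38.7%. The 6 probes that fell had passed the detection filter through the scrambled arrays alone. The filter thus favoured a fall, and the count of these probes is a description and no support. Probes detected on both scrambled arrays and on neither ADAR shRNA array made up 10.1% of all probes tested, and 74.3% of those fell. In RNA from whole cultures, fewer cells that express a gene and less of its RNA per cell cannot be told apart.

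**Figure D1:**
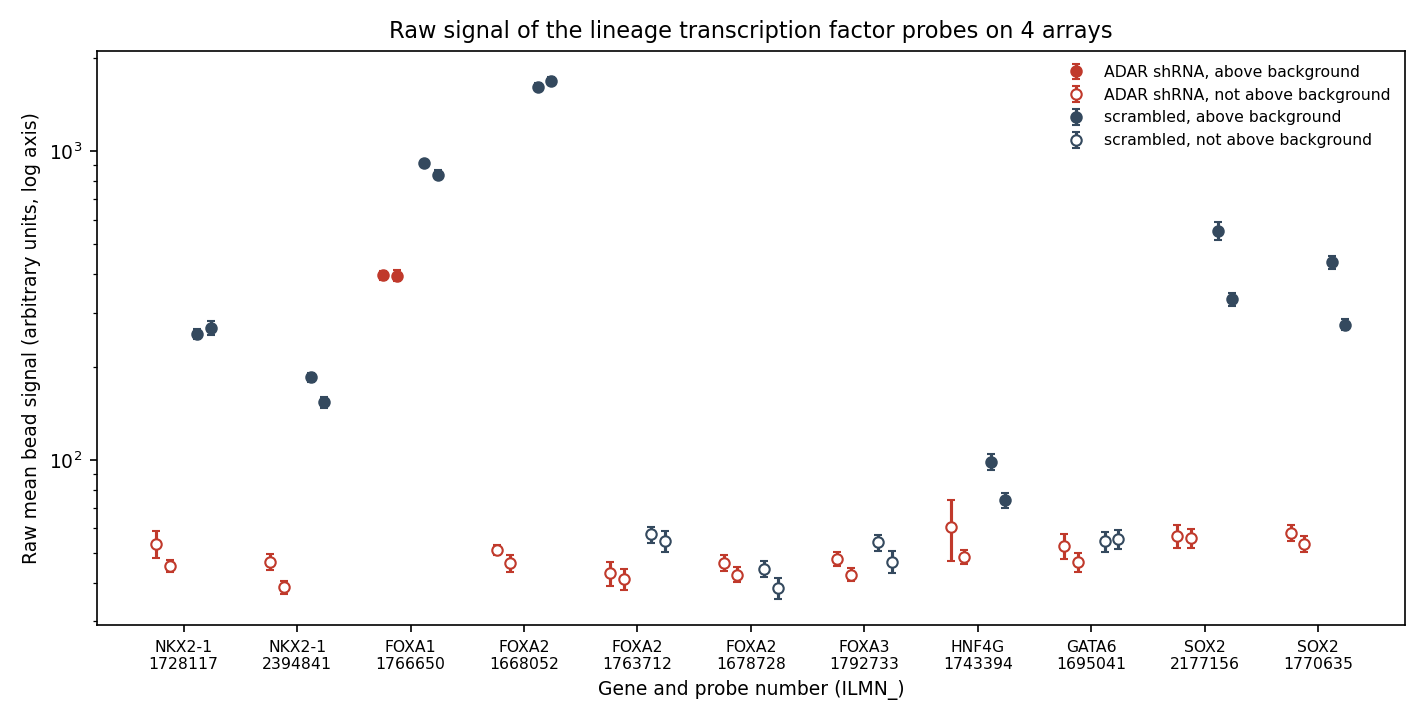
Raw mean bead signal (arbitrary units, log axis) of the 11 member probes on each of the 4 arrays, ADAR shRNA in red and scrambled in dark blue, with filled points above background, open points not above background and bars of 1 bead standard error. The ADAR shRNA points of NKX2-1, SOX2 and the brightest FOXA2 probe lie between 38.7 and 58.0, while the scrambled points of the same probes lie between 154 and 1689.

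The promoter windows of NKX2-1, SOX2 and FOXA1 are shown because NKX2-1 and SOX2 were undetected in ADAR shRNA cells and detected in scrambled cells, while FOXA1 was detected in both. They are the 250 bases before each gene's start in the RefSeq promoter table (GRCh38.p14), 5′ to 3′ on the gene's strand. The table gave NKX2-1 more than one start, of which the first and a downstream one are shown. Capitals mark matches on either strand to 4 short motifs: TGTTTAC for forkhead factors, CTTTGT for SOX factors, AGATAA for GATA factors and CAAGTG for NKX2 factors.
NKX2-1, first start, chr14:36520233-36520482, minus strand: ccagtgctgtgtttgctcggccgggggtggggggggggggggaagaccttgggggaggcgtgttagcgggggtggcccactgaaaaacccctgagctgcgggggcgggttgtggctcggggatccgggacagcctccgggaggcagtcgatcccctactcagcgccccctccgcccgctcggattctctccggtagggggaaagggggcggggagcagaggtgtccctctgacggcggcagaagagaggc
NKX2-1, downstream start, chr14:36519557-36519806, minus strand: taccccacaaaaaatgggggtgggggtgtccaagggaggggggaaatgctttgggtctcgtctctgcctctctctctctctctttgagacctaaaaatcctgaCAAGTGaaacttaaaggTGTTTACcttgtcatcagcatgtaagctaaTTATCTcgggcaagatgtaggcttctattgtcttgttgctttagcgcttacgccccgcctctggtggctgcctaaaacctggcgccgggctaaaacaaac
SOX2, chr3:181711675-181711924, plus strand: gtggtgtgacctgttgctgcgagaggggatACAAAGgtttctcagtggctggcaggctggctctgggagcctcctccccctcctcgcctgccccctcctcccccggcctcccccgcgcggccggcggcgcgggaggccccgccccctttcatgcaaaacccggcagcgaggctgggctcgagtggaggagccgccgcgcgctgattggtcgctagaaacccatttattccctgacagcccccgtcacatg
FOXA1, chr14:37595250-37595499, minus strand: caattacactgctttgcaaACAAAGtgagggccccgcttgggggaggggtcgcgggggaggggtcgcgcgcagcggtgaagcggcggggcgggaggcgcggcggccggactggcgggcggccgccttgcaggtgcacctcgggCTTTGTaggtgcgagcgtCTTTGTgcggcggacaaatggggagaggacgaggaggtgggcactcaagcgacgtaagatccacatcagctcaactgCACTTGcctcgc
The downstream NKX2-1 window held 1 forkhead match 130 bases before the start, 1 NKX2 match 147 bases before it and 1 GATA match 100 bases before it, while the window of the first start held none of the 4 motifs. The SOX2 window held 1 SOX match, 220 bases before the start. The FOXA1 window held 3 SOX matches, 231, 107 and 89 bases before the start, and 1 NKX2 match 12 bases before it. Of 35116 windows of the same length in the table, 2.98% held the forkhead motif, 13.7% the SOX motif, 9.17% the GATA motif and 9.5% the NKX2 motif. The matches describe letters in these windows and do not show that a factor binds there. The table held no window for FOXA2.

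NKX2-1, the lung factor, was read by 2 probes of the same RefSeq transcript, both on chromosome 14. ILMN_1728117 read 53.3 ± 5.39 and 45.4 ± 1.88 (bead standard error) on the ADAR shRNA arrays, against 257 ± 9.71 and 267 ± 14.0 on the scrambled arrays. Its detection p was 0.364 and 0.781 on the ADAR shRNA arrays and 0 on both scrambled arrays, so the first pair lay within the range of the negative controls. Its normalized log2 value averaged 4.41 ± 0.12 in ADAR shRNA cells and 7.43 ± 0.31 in scrambled cells (SD, n = 2 each), and NKX2-1 was at least 5.71-fold lower on that scale (limma adjusted p = 2.74e-05). The fitted log2 change was -3.01 (SE 0.22, 95% interval -3.52 to -2.51).

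The other NKX2-1 probe, ILMN_2394841, was dimmer and showed the same separation. It read 46.8 and 38.7 on the ADAR shRNA arrays against 185 and 154 on the scrambled arrays, at least 3.40-fold lower on the normalized scale (log2 change -2.39, SE 0.19, limma adjusted p = 3.81e-05). On both probes the highest ADAR shRNA array lay below the lowest scrambled array, and the scrambled mean was 5.31 and 3.96 times the ADAR shRNA mean on the raw scale. The size of the fall changed with the processing. With no background correction the log2 changes were -1.75 and -1.38. On the authors' processed values, whose normalization is not stated, they were -3.66 and -4.14.

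SOX2 was likewise read by 2 probes of a single RefSeq transcript, on chromosome 3. ILMN_2177156 read 56.7 ± 4.91 and 55.8 ± 3.95 on the ADAR shRNA arrays, against 553 ± 36.1 and 331 ± 15.0 on the scrambled arrays. Its normalized log2 value averaged 4.63 ± 0.02 in ADAR shRNA cells and 8.19 ± 0.30 in scrambled cells (SD, n = 2 each). On that scale SOX2 was at least 9.72-fold lower on this probe, with a log2 change of -3.57 (SE 0.21, 95% interval -4.06 to -3.08, limma adjusted p = 1.14e-05). The scrambled mean was 7.86 times the ADAR shRNA mean on the raw scale. The raw scrambled readings differed from each other, and the lower one was still above both ADAR shRNA readings.

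The other SOX2 probe, ILMN_1770635, read 58.0 and 53.6 on the ADAR shRNA arrays against 438 and 274 on the scrambled arrays. It was at least 7.73-fold lower on the normalized scale (log2 change -3.26, SE 0.21, limma adjusted p = 1.49e-05), and its raw scrambled mean was 6.39 times the ADAR shRNA mean. On both probes the first scrambled array was the brighter one. SOX2 is transcribed inside an intron of the long noncoding RNA gene SOX2-OT, which runs in the same direction. The SOX2-OT probe (ILMN_3242257) read 65.2 and 48.2 on the ADAR shRNA arrays and 64.2 and 57.1 on the scrambled arrays, was above background on 1 ADAR shRNA array, and was not tested.

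FOXA2, a forkhead factor of endoderm, had the largest fitted fall of the member probes. ILMN_1668052, on chromosome 20, read 51.2 ± 1.85 and 46.4 ± 3.01 on the ADAR shRNA arrays, against 1619 ± 39.6 and 1689 ± 51.4 on the scrambled arrays. Its normalized log2 value averaged 4.40 ± 0.06 in ADAR shRNA cells and 10.29 ± 0.28 in scrambled cells (SD, n = 2 each). On that scale FOXA2 was at least 41.6-fold lower, with a fitted log2 change of -5.90 (SE 0.21, 95% interval -6.38 to -5.41, limma adjusted p = 1.48e-06). The scrambled mean was 33.9 times the ADAR shRNA mean on the raw scale, and with no background correction the log2 change was -4.29, so the size rests on the background step.

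The FOXA2 probes did not give the same reading in scrambled cells. ILMN_1678728, designed against the same RefSeq transcript as the bright probe, read 46.4 and 42.6 on the ADAR shRNA arrays and 44.5 and 38.5 on the scrambled arrays. ILMN_1763712, against the other FOXA2 transcript, read 43.0 and 41.2 on the ADAR shRNA arrays and 57.4 and 54.5 on the scrambled arrays. Neither was above background on any array and neither was tested, so the fall of FOXA2 rests on 1 of its 3 probes. The probe sequences were not used here, and the reason for the disagreement was not tested.

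FOXA1, the closest relative of FOXA2, remained detected in both groups. Its single probe, ILMN_1766650 on chromosome 14, read 396 ± 13.6 and 395 ± 16.2 on the ADAR shRNA arrays, against 912 ± 25.9 and 840 ± 27.7 on the scrambled arrays. The groups did not overlap, and the scrambled mean was 2.22 times the ADAR shRNA mean on the raw scale. After quantile normalization the values averaged 8.93 ± 0.02 in ADAR shRNA cells and 9.30 ± 0.16 in scrambled cells (SD, n = 2 each). The log2 change was then -0.37 (SE 0.19, 95% interval -0.81 to 0.08, limma adjusted p = 0.147) and did not pass the test. The interval leaves room for no difference and for a fall of 0.81 on the log2 scale.

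The call on FOXA1 depended on how the arrays were scaled. With median scaling the log2 change was -1.08 (limma adjusted p = 0.00276). Without any normalization between arrays it was -1.22 (limma adjusted p = 0.00269). Those scalings moved the median log2 change of all genes to -0.54 and -0.68, against -0.08 after quantile normalization. FOXA3, the third FOXA gene, read 47.9 and 42.5 on the ADAR shRNA arrays and 54.1 and 46.9 on the scrambled arrays (ILMN_1792733). It was above background on no array.

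HNF4G, the nuclear receptor relative of HNF4A, was dim in both groups. ILMN_1743394, on chromosome 8, read 60.6 ± 13.5 and 48.5 ± 2.64 on the ADAR shRNA arrays, against 98.8 ± 5.86 and 74.0 ± 4.18 on the scrambled arrays. It was above background on the scrambled arrays alone and was at least 1.33-fold lower on the normalized scale, or 1.58-fold by raw means (log2 change -0.73, SE 0.22, 95% interval -1.24 to -0.23, limma adjusted p = 0.0244). The first ADAR shRNA reading came from 10 beads and had a wide bead error. The call was lost with no background correction (-0.35, limma adjusted p = 0.0676) and with no filter on detection (limma adjusted p = 0.0577). It was also lost without ADAR shRNA replicate 2 (-0.58, limma adjusted p = 0.136) and without scrambled replicate 1 (-0.52, limma adjusted p = 0.125).

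GATA6, the endodermal zinc finger factor, read 52.7 and 46.6 on the ADAR shRNA arrays and 54.5 and 55.4 on the scrambled arrays (ILMN_1695041). All 4 readings were within the background, so no difference was detectable by this probe and none is given.

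**Figure D2:**
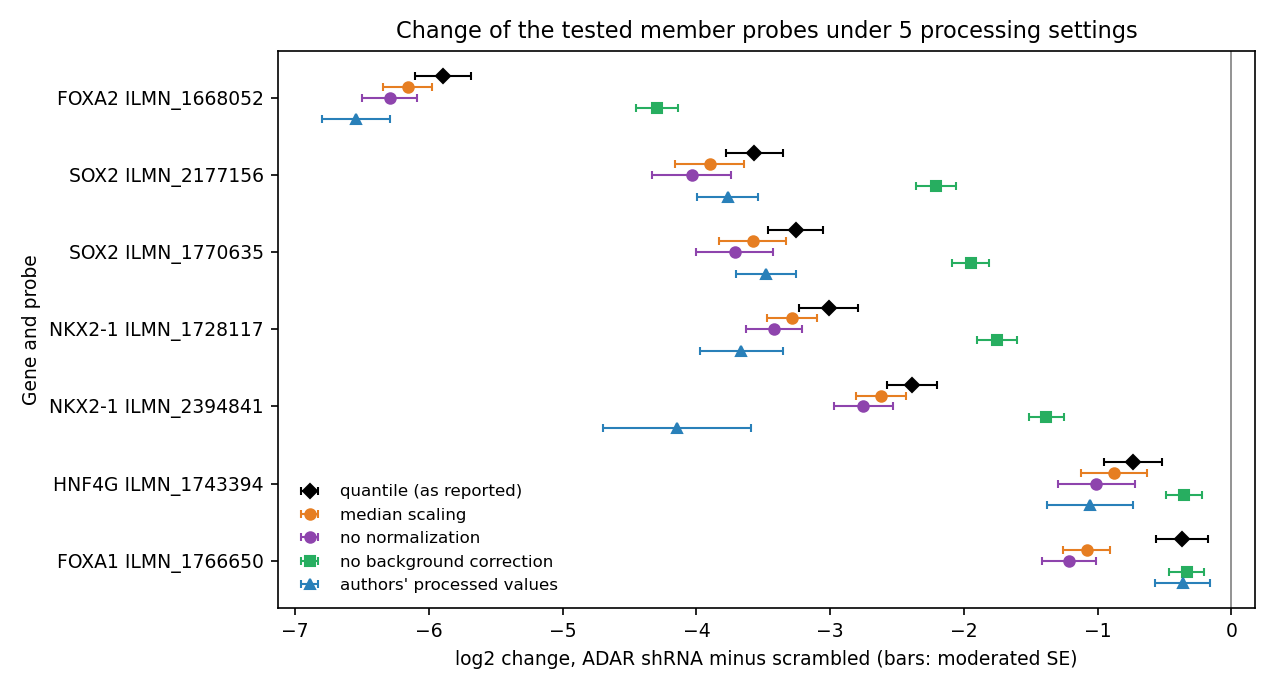
Log2 change (ADAR shRNA minus scrambled, bars of 1 moderated SE) of the 7 tested member probes under quantile normalization as reported and 4 other ways of processing. The FOXA2, SOX2 and NKX2-1 points lie between -6.54 and -1.38, while HNF4G ranges from -1.05 to -0.35 and FOXA1 from -1.22 to -0.33.

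The plot of the change by setting shows where background correction and scaling matter. For the undetected members the size of the fall was set by the background: with no background correction FOXA2 changed by -4.29 and SOX2 by -2.21 and -1.95. For FOXA1, bright on all arrays, background correction moved little (-0.33 without it) and the scaling between arrays moved the value most.

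Other genes followed the same pattern over the 4 arrays. Likeness was measured as the Euclidean distance between gene-centred normalized log2 values over the 4 arrays, which for 2 arrays per group mostly reflects an equal size of change. IL1RAPL1 lay nearest to NKX2-1 (distance 0.07 log2 units), followed by TACC3, a spindle protein, and CYSRT1 (both 0.10), and 163 genes lay within 0.5. IL1RAPL1 read 62.6 and 56.3 on the ADAR shRNA arrays, not above background, against 310 and 329 on the scrambled arrays. The nearest to FOXA2 were PROM2, a membrane protein of epithelial cells (0.17), LOC100505715 (0.22) and LAD1, a basement membrane filament protein (0.22), with only 8 genes within 0.5. PROM2 read 53.6 and 44.0 on the ADAR shRNA arrays, not above background, against 1565 and 1872 on the scrambled arrays. The nearest to SOX2 were LRCH4 (0.16), CD163L1 (0.18) and MAL2, a protein of apical transport in epithelia (0.19), with 31 within 0.5. The nearest to HNF4G were TMEM237 (0.08), SRP68 (0.08) and PROSER1 (0.09). As many as 1546 genes lay within 0.5 of HNF4G, so its pattern is a common one on these arrays.

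The genes beside NKX2-1, FOXA1, FOXA2 and SOX2 on the chromosome were followed next, within 1 Mb between the lower annotated coordinates. Those beside HNF4G, on chromosome 8, were not followed. NKX2-1 had 9 such genes with a probe, and of the 6 tested 3 fell and 1 rose, against 30.3% and 24.2% of all genes. Of the 6, SFTA3 and SLC25A21 passed the filter through the scrambled arrays alone, which favoured a fall. The count is thus a description and no support. The long noncoding gene SFTA3 lay nearest, 0.0431 Mb from NKX2-1, and it also belongs to the lung differentiation genes. SFTA3 read 57.6 and 55.3 on the ADAR shRNA arrays, not above background, against 160 and 120 on the scrambled arrays, at least 2.65-fold lower on the normalized scale, or 2.48-fold by raw means (limma adjusted p = 0.000212). PAX9, a paired-box factor, read 66.1 and 78.8 on the ADAR shRNA arrays against 139 and 138 on the scrambled arrays (log2 change -0.92, SE 0.27, limma adjusted p = 0.0222). MBIP, a subunit of a histone acetyltransferase complex, read 138 and 123 on the ADAR shRNA arrays against 382 and 325 on the scrambled arrays (log2 change -0.96, SE 0.19, limma adjusted p = 0.00416).

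RALGAPA1, at the far edge of that window (0.978 Mb), rose by 1.101 (SE 0.19, limma adjusted p = 0.00232), but not with median scaling (0.46, adjusted p = 0.0713). SLC25A21 (-0.56) and MIPOL1 (-0.57) did not pass the test. With median scaling MIPOL1 fell (-1.13, limma adjusted p = 0.0061) and SLC25A21 was not called (-0.69, limma adjusted p = 0.0672). FOXA1 lies on the same chromosome and shares PAX9, SLC25A21 and MIPOL1 with the NKX2-1 window; its other tested neighbour, SSTR1, changed by 0.13 and was not called. Beside FOXA2, 2 of 13 genes with a probe were tested. NXT1, a nuclear export factor 0.770 Mb away, read 368 and 338 on the ADAR shRNA arrays against 1925 and 1717 on the scrambled arrays (log2 change -1.69, SE 0.19, limma adjusted p = 0.000227), and NAPB changed by 0.17 and was not called. Beside SOX2, FXR1 (-0.23) and DNAJC19 (-0.42) did not pass the test. Both fell with median scaling.

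**Figure D3:**
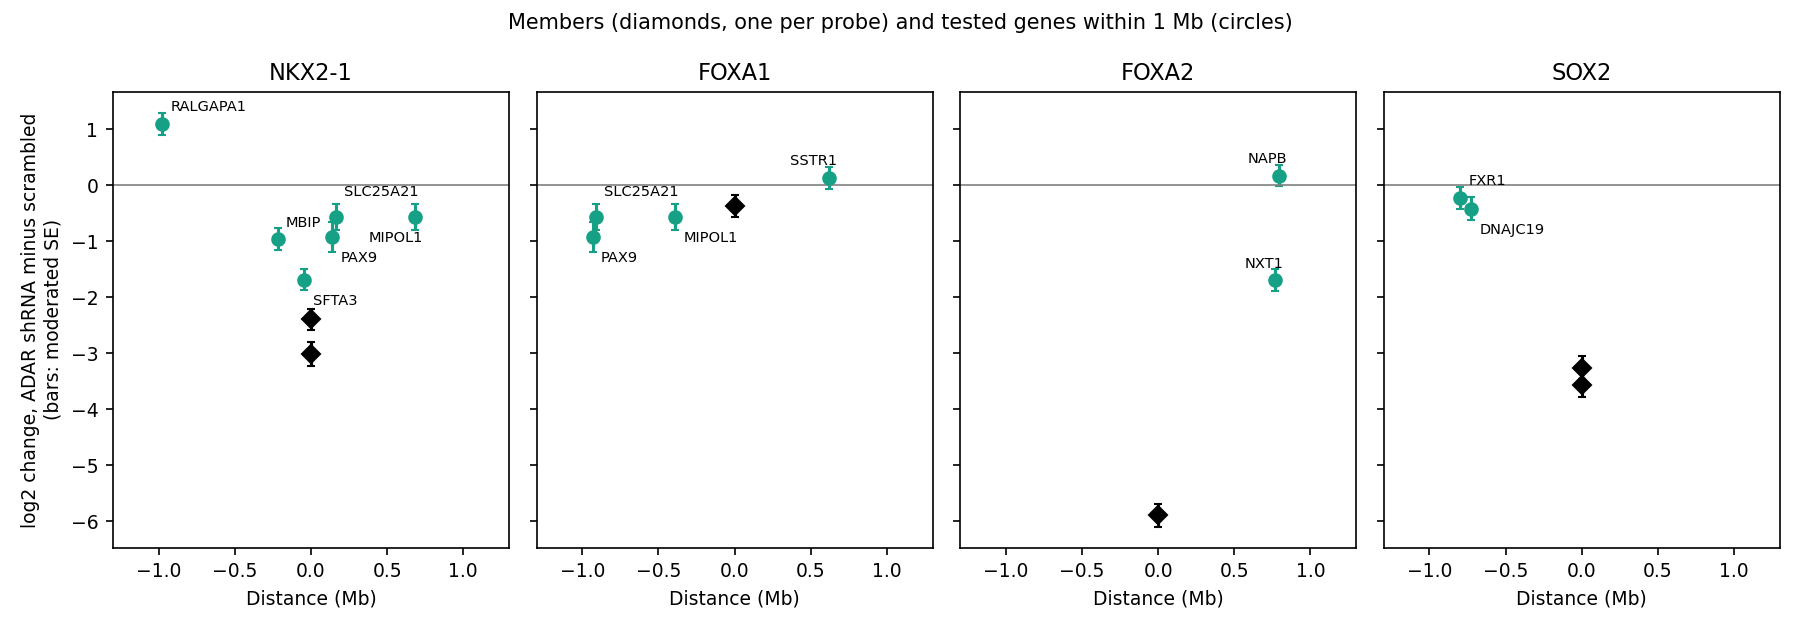
Log2 change (ADAR shRNA minus scrambled, bars of 1 moderated SE) of the tested genes within 1 Mb of NKX2-1, FOXA1, FOXA2 and SOX2 (circles) and of the member probes themselves (diamonds), against the distance between lower gene coordinates (Mb). No fitted change of a neighbour reached those of NKX2-1, FOXA2 and SOX2, and the largest neighbouring falls shown are SFTA3 at -1.69 and NXT1 at -1.69. Each neighbour is shown by its brightest tested probe, and the other SFTA3 probe (ILMN_1895128, not shown) changed by -2.27.

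Genes linked to lung, liver and gut identity did not move in 1 direction. Lung differentiation genes were measured first, as the genes associated with NKX2-1. Of 24 with a probe 10 were tested, of which 4 rose, 2 fell and 4 were not called, against 24.2% risen and 30.3% fallen over all genes. Of the 10, 1 was undetected on both ADAR shRNA arrays and 1 on both scrambled arrays, where the filter favoured a call. The median log2 change was 0.08 beside -0.08 over all genes. With median scaling 2 rose and 4 fell, and the median was -0.20 beside -0.54. The surfactant genes SFTPA1, SFTPB, SFTPC and SFTPD, the alveolar protease NAPSA and the club cell gene SCGB1A1 were not tested, because none was detected on 2 arrays. Both scrambled arrays thus read NKX2-1 above background without detection of any of these genes on the pair.

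Both falls in the lung list were seen on probes at or near background in ADAR shRNA cells. LAMP3, a lamellar body membrane protein, read 67.4 and 65.4 on the ADAR shRNA arrays against 378 and 315 on the scrambled arrays (ILMN_2170814, log2 change -2.71, SE 0.19, limma adjusted p = 2.08e-05). The other LAMP3 probe changed by -0.26 and was not called. SFTA3 fell on both of its probes.

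The largest rises in the lung list were HOPX and ABCA3. HOPX, a homeodomain protein of alveolar type I cells, read 1322 and 518 on the ADAR shRNA arrays against 123 and 83.9 on the scrambled arrays (log2 change 4.32, SE 0.40, limma adjusted p = 8.86e-05). The change was 5.02 without ADAR shRNA replicate 2 and 3.69 without ADAR shRNA replicate 1, and the other HOPX probe rose by 1.83. ABCA3, the lipid transporter of lamellar bodies, read 149 and 174 on the ADAR shRNA arrays against 64.1 and 61.4 on the scrambled arrays, not above background, at least 5.77-fold higher on the normalized scale and 2.57-fold higher by raw means (limma adjusted p = 3.26e-05). SELENBP1 rose by 1.20 (limma adjusted p = 0.00493), and not with median scaling (0.58, adjusted p = 0.120).

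Liver genes known to be regulated by HNF4A and FOXA factors rose more often than they fell, while FOXA2 and HNF4G fell. Of 34 with a probe 13 were tested, of which 7 rose and 2 fell, against 24.2% and 30.3% of all genes, with a median log2 change of 0.65. Of the 13, 5 were undetected on both scrambled arrays and passed the filter through the ADAR shRNA arrays alone. Another 2 were undetected on both ADAR shRNA arrays, and for all of these the filter favoured a difference. FGG, the fibrinogen gamma chain, read 5029 and 3731 on the ADAR shRNA arrays against 58.4 and 50.8 on the scrambled arrays, not above background, at least 170-fold higher on the normalized scale and 80.2-fold higher by raw means (limma adjusted p = 3.67e-07). VTN, the plasma adhesion protein vitronectin, was at least 35.8-fold higher on the normalized scale and 18.1-fold higher by raw means (limma adjusted p = 9.76e-07). FGA, the fibrinogen alpha chain, was at least 32.0-fold higher on the normalized scale and 15.0-fold higher by raw means (limma adjusted p = 1.36e-06). Both were undetected on the scrambled arrays.

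The falls in the liver list were small. AFP, the fetal plasma protein, read 51.9 and 57.2 on the ADAR shRNA arrays, not above background, against 98.3 and 70.5 on the scrambled arrays, at least 1.26-fold lower on the normalized scale, or 1.55-fold by raw means (limma adjusted p = 0.0336). HSD17B6, a steroid enzyme of liver, was at least 1.35-fold lower on the normalized scale, or 1.52-fold by raw means (limma adjusted p = 0.0327). Neither fall passed with no background correction (adjusted p = 0.0843 for AFP and 0.0957 for HSD17B6) or with no filter on detection (0.0719 and 0.0615). Without ADAR shRNA replicate 1 or scrambled replicate 1 both calls were lost (adjusted p = 0.15 and 0.177 for AFP, 0.167 and 0.145 for HSD17B6). AFP was also lost without ADAR shRNA replicate 2 (0.0586), and HSD17B6 without scrambled replicate 2 (0.0545).

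Gastric and intestinal genes were followed because NKX2-1 fell, and its loss in mouse lung tumours is known to redirect FOXA factors towards gastric genes. The list also holds intestinal genes and is not an established target set of these factors. Of 22 with a probe 17 were not tested and 5 were, of which 2 rose and 1 fell, against 24.2% and 30.3% of all genes. Of the 5, 1 was undetected on both ADAR shRNA arrays, where the filter favoured a fall. The median log2 change was 0.05 beside -0.08 over all genes, and -0.05 beside -0.54 with median scaling. TSPAN8, a tetraspanin of gut epithelium, read 649 and 825 on the ADAR shRNA arrays against 144 and 83.7 on the scrambled arrays (log2 change 3.997, SE 0.27, limma adjusted p = 2.02e-05). AGR2, a protein folding enzyme of mucus-secreting cells, read 2429 and 2433 on the ADAR shRNA arrays against 1792 and 703 on the scrambled arrays (log2 change 1.81, SE 0.34, limma adjusted p = 0.00303). Leaving out scrambled replicate 1 gave a change of 2.42, and leaving out scrambled replicate 2 gave 1.28, while the call was lost with no normalization between arrays (1.15, adjusted p = 0.0598). VSIG1, a junction protein of stomach, was at least 2.08-fold lower on the normalized scale, or 2.17-fold by raw means (limma adjusted p = 0.00186).

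The other transcription factors of lung, liver and gut moved both ways. Of 42 with a probe 26 were tested, of which 10 rose, 13 fell and 3 were not called. These were 38.5% risen and 50% fallen beside 24.2% and 30.3% of all genes, with a median of -0.48. Of the 26, 3 were undetected on both ADAR shRNA arrays and 3 on both scrambled arrays. The filter kept these through the other group alone and favoured a call, so the counts are a description and no support. IRX2, an Iroquois factor of lung, read 383 and 379 on the ADAR shRNA arrays against 108 and 59.1 on the scrambled arrays (log2 change 3.74, limma adjusted p = 5.70e-05). IRX2 was detected on 1 of the 2 scrambled arrays, and leaving out scrambled replicate 2 gave a change of 3.16, and leaving out scrambled replicate 1 gave 4.09. ETV4, an ETS factor induced by FGF signalling, rose by 2.36 (SE 0.20, limma adjusted p = 5.91e-05). CEBPA, a basic leucine zipper factor of liver and alveolar differentiation, read 115 and 124 on the ADAR shRNA arrays against 63.0 and 53.9 on the scrambled arrays, not above background, at least 3.80-fold higher on the normalized scale and 2.05-fold higher by raw means (limma adjusted p = 6.48e-05).

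CEBPD, from the same family as CEBPA, moved the opposite way. It read 407 and 383 on the ADAR shRNA arrays against 3796 and 3513 on the scrambled arrays (log2 change -2.62, SE 0.19, limma adjusted p = 3.09e-05). GRHL2, the grainyhead factor of epithelial junction genes, read 48.7 and 52.6 on the ADAR shRNA arrays, not above background, against 220 and 243 on the scrambled arrays, at least 4.93-fold lower on the normalized scale, or 4.57-fold by raw means (limma adjusted p = 5.62e-05). ELF3, an epithelial ETS factor, read 59.6 and 80.5 on the ADAR shRNA arrays, above background on 1 of them, against 278 and 266 on the scrambled arrays (log2 change -2.21, SE 0.34, limma adjusted p = 0.00113). The ELF3 change was -1.71 without ADAR shRNA replicate 1 and -2.85 without ADAR shRNA replicate 2. GRHL2, ELF3, EPCAM and CDH1 are thus lower in the same 2 arrays as NKX2-1, FOXA2 and SOX2. With 2 groups this holds for every gene that fell, or 30.3% of all genes.

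**Figure D4:**
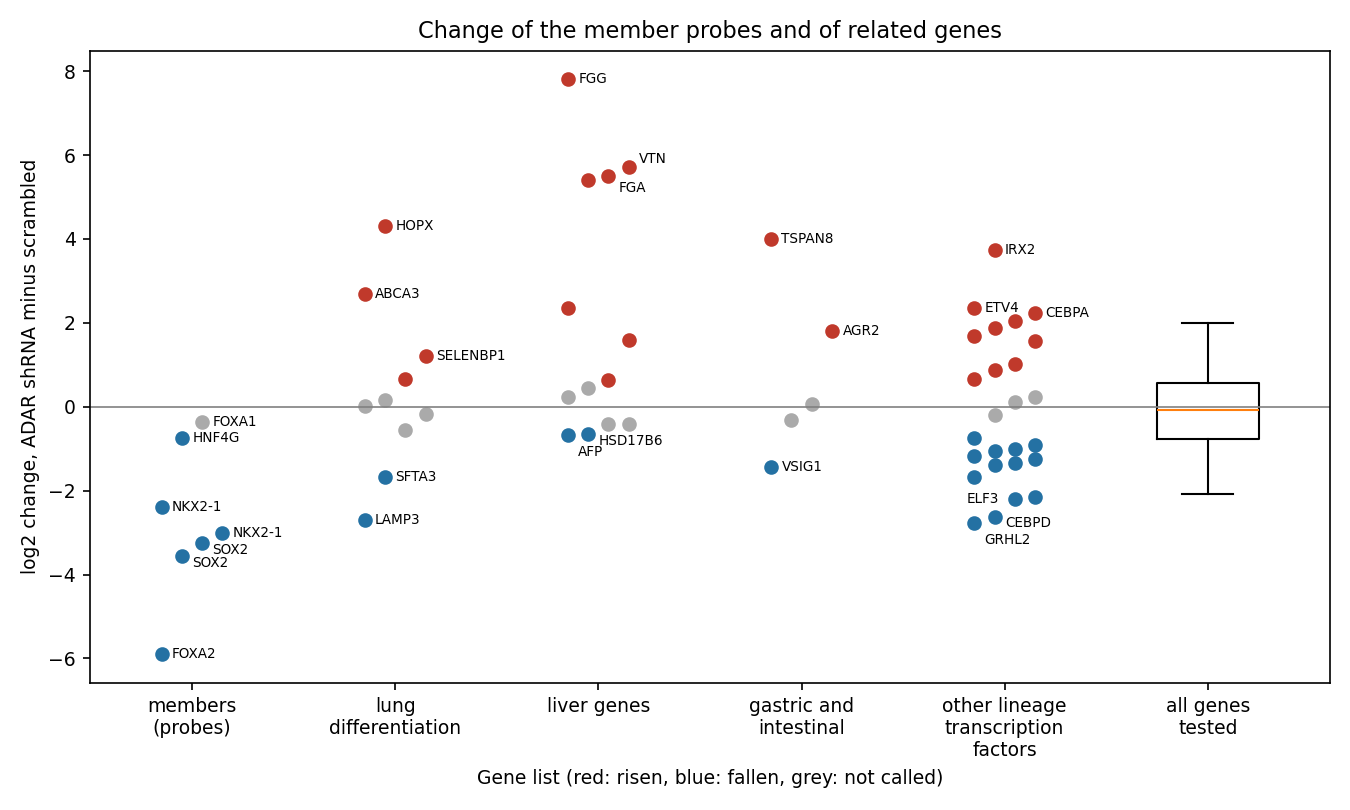
Log2 change (ADAR shRNA minus scrambled) of the 7 tested member probes and of the tested genes of the 4 lists, 1 point each, red for risen, blue for fallen and grey for not called, beside a box of all 12197 genes (median line, quartile box, whiskers from the 5th to the 95th percentile). The member points run from -0.37 for FOXA1 to -5.90 for FOXA2, and in each of the 4 lists points lie on both sides of 0.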

How the data were processed

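Total RNA of 4 H358 samples was labelled with biotin and hybridised to 1-colour Illumina BeadChips, per the labels. The deposited scanner table listed, per the file headers, each probe's average signal intensity (linear), its bead count, the standard error between beads and a detection p-value. Per the submitters' processing notes these came from GenomeStudio (version and settings not given). The authors also deposited processed intensity values, made by an unstated normalization, which served as an alternative. For that, 16 was added to each value, results under 1 were set to 1, and log2 was taken.

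Here intensities were background corrected with normexp in limma 3.58.1 (R 4.3.3), the background taken from the detection p-values with an offset of 16, quantile normalized and log2 transformed. Probes with a detection p under 0.05 on at least 2 arrays were fitted with lmFit and eBayes, 2-sided, with no replicate block (2 residual and 5.83 prior degrees of freedom). The fit was also run on simulated data in which few probes changed. These arrays differ at many probes, so that run does not support the calls given here. The median log2 change and counts over lists used each gene's brightest tested probe. The platform annotation gave 1 symbol for 30113 probes, several for 8, and did not list 17201; 0 symbols needed updating.

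The members and lists were chosen with earlier results of these data known. Named were every member probe, ADAR, up to 3 rises and 3 falls by log2 change per list among called genes whose groups did not overlap, and the 3 genes nearest to each member with a called probe. The chromosomal neighbours of NKX2-1, FOXA1, FOXA2 and SOX2 and the marker genes are given beside these. Replicate arrays differed by more than bead error at 30.1% of probes in ADAR shRNA cells and 42.4% in scrambled cells, where chance gives 5%, so each was counted as 1 sample. Promoter sequences came from RefSeq (GRCh38.p14). Alternatives were median scaling, no normalization between arrays, no background correction, the authors' processed values, no filter, a stricter filter, 1 probe per gene, a replicate block and leaving out each array.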

Additional observations from a re-analysis of the deposited data

How the results depend on the processing

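No member probe changed sign under any alternative run. Median scaling turned the lung median from 0.08 to -0.20 and the gastric median from 0.05 to -0.05. It turned the rise of MUC1, a lung list gene picked after its values were seen, from 0.67 to -0.04. The median over all genes moved from -0.08 to -0.54. Relative to that, the lung median was 0.16 and then 0.34, the gastric median 0.13 and then 0.49, and MUC1 0.74 and then 0.51. FOXA2, SOX2 and NKX2-1 kept an adjusted p under 0.05 wherever tested, which is no support, since the filter kept them through the scrambled arrays alone. With median scaling 2 lung genes rose and 4 fell, and the same counts held with no normalization between arrays (4 and 2 as reported), where 1 gastric gene rose instead of 2. Over all probes 5155 rose and 5595 fell as reported (48% of calls were rises), 2825 rose and 8487 fell with median scaling (25%), and 2130 rose and 8986 fell with no normalization (19.2%). The liver count of falls was 0 with no background correction, 0 with no filter and 0 with detection p under 0.01 on all 4 arrays (limma), against 2. That strict filter tested 1 member probe, FOXA1, so 0 member probes fell; 0 lung and 0 gastric genes fell, 1 liver gene rose, and 6 other transcription factors rose and 5 fell. Over all probes it left 3621 risen and 3355 fallen. With 1 probe per gene, 3116 genes rose and 3928 fell.

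Leaving out each array in turn, with the lone array assumed to vary like the other group, gave 5 to 6 fallen member probes, 3 to 4 risen lung genes, 6 to 7 risen and 0 to 1 fallen liver genes, 8 to 9 risen and 11 to 13 fallen other transcription factors, and an ADAR change of -1.22 to -0.86. The replicate numbers in the titles were not shown to pair the arrays: deviations of same-numbered arrays correlated at 0.14 over probes, with 2 pairs only. With the replicate block 5562 probes rose and 6011 fell, FOXA2 had an adjusted p of 5.76e-08 (limma) and no member probe's call changed. The dim HNF4G probe, and the undetected FOXA3 and GATA6 probes, are limited by signal over background.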

Other observations

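Relatives of the members were counted by symbol, in families chosen after values had been seen. Of 25 tested FOX genes other than the members 10 rose and 6 fell (24.2% and 30.3% over all genes), and with median scaling 7 rose and 9 fell. Of the 25, 1 was undetected on both ADAR shRNA arrays and 2 on both scrambled arrays, where the filter favoured a call. FOXF1 and FOXF2, forkhead factors of lung mesenchyme, read 99.7 and 104, and 87.8 and 86.9, on the ADAR shRNA arrays and were not above background on the scrambled arrays (53.0 and 60.5 for FOXF1, 45.2 and 46.3 for FOXF2). FOXM1, a forkhead factor of the cell cycle, read 80.4 and 68.3 on the ADAR shRNA arrays against 311 and 258 on the scrambled arrays (log2 change -2.03, limma adjusted p = 0.000183).

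Of 10 tested SOX genes other than SOX2 5 rose and 3 fell, beside the same shares over all genes, and with median scaling 3 rose and 4 fell. Of the 10, 2 were undetected on both scrambled arrays, where the filter favoured a rise. SOX21, SOX4 and SOX9 fell by 2.14, 1.68 and 1.35 on the log2 scale, and SOX7 rose by 2.39. SOX9, a factor of the distal lung bud, read 130 and 124 on the ADAR shRNA arrays against 432 and 437 on the scrambled arrays. None of the 5 GATA genes other than GATA6 with a probe was detected on 2 arrays. Of 11 NKX genes other than NKX2-1 with a probe 2 were tested, and NKX3-2 fell while NKX2-2 was not called. Both were undetected on both ADAR shRNA arrays, where the filter favoured a fall, and 30.3% of all genes fell.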
